A study of Mus musculus with 18 samples.

Results

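The clustered replication histone genes are the mouse genes that sit in 4 genomic clusters, Hist1 to Hist4, and encode the core histones H2A, H2B, H3 and H4 and the linker histone H1. They were taken from the expression table by name, as every gene whose symbol begins with Hist1h, Hist2h, Hist3h or Hist4h, and no expression value was used in the choice. The rule found 64 of the 21761 genes listed: 6 H1, 15 H2A, 19 H2B, 11 H3 and 13 H4 genes. The Hist1 cluster held 52 of them on chromosome 13 (chr13:21807632-24026720), Hist2 held 8 on chromosome 3 (chr3:96023839-96082924), Hist3 held 3 on chromosome 11 (chr11:58762413-58770176), and Hist4 held a single H4 gene on chromosome 6 (chr6:136752589-136752900; all coordinates on NCBIM37, the assembly also called mm9).

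RNA was sequenced from 3 B cell populations of Dnmt3-sufficient and Dnmt3-deficient mice, 3 libraries for each of the 6 groups. Every mouse carried loxP-flanked catalytic domains of the DNA methyltransferase genes on both copies (Dnmt3a fl/fl Dnmt3b fl/fl, on a B6;129S4 background). The deficient mice had in addition 1 Cre allele, which the sufficient littermates lacked. Naive B cells (nB) came from lymph nodes of unimmunized mice. Germinal center B cells specific for the antigen phycoerythrin (GCB) were sorted from lymph nodes, and plasma cells (BMPC) from bone marrow by their CD138. Both came from mice immunized 30 days before with phycoerythrin in complete Freund's adjuvant, so cell type and immunization cannot be told apart in a comparison with nB. Mice were 8 to 12 weeks old when the experiments began, each GCB sample pooled 2 mice, and about 5000 sorted cells entered each library. Each group held both sexes, with more females in nB and GCB and more males in BMPC.

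Replication histone proteins package newly made DNA, and most of their messenger RNA is made in S phase, when the genes are transcribed together from nuclear bodies organised by NPAT. These transcripts carry no poly(A) tail. They end just past a short conserved stem-loop, which the stem-loop binding protein SLBP recognises and which sets how the 3′ end is cut and how quickly the RNA is degraded when replication stops. Germinal center B cells divide rapidly, whereas naive B cells rest and plasma cells as a type have mostly left the cell cycle. Whether the cells sorted here as plasma cells had left it was not tested. Some of these genes also make a longer polyadenylated transcript in cells that no longer divide. The library kit used here primes reverse transcription with oligo(dT), which binds poly(A), so the values below count histone RNA that such priming captured and are not the total amount of histone RNA in the cells.

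Each nB library had 6692516 to 8987922 reads on the listed genes. GCB libraries were as deep (7644544 to 8903872 reads), and BMPC libraries were shallower (1355231 to 3803197 reads). The plasma cell markers followed the labels. The summed FPKM (fragments per kilobase of exon and 1000000 mapped fragments) of 6 plasma cell markers was 38.4 to 173 in nB. It was 582 to 917 in GCB. In BMPC it was 17008 to 26871 in the sufficient and 31160 to 48114 in the deficient libraries, which did not overlap. The BMPC libraries also held markers of other bone marrow cells. Summed over 5 early B genes they reached 308 to 627 FPKM, against 0 to 22.5 in the other libraries. Summed over 6 neutrophil-lineage genes they reached 9.37 to 451 FPKM, and all 6 of these genes were at 0 in nB and GCB. Summed over 3 listed erythroid genes they were 1160 to 2172 FPKM in Dnmt3-sufficient BMPC and 149 to 789 in Dnmt3-deficient BMPC. The same genes were at most 1.42 FPKM in sufficient nB and 22.5 to 204 in deficient nB. Summed over 4 T cell genes, GCB libraries were at 0 to 4.08 FPKM, below nB (16.9 to 58.8) and BMPC (25.1 to 134), and the part of T cells in the comparisons with GCB was not tested. Counting used whole genes, so it did not separate the deleted exons: Dnmt3a stood at 2.35 to 5.18 FPKM in sufficient and 2.24 to 4.33 in deficient nB, and the libraries overlapped, which leaves the genotype unchecked.

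The stem-loop was looked for in the genome itself, because it marks the transcripts that the families share. Of the 62 histone genes with an annotated coding sequence, 59 held a 16-base match to the consensus histone stem-loop within 150 bases past the stop codon, at a median distance of 31 bases (range 22 to 59), against 3 of 21771 other coding genes (0.0138%). The 3 without a match in this window were Hist1h2an, Hist2h2bb and Hist2h2be. The matches took 8 forms, and the most frequent was shared by 35 genes. The following stem-loops belong to genes on which the comparisons turn, with the stem and loop in capitals and 5 flanking bases on each side, in the direction of transcription:
Hist1h1b: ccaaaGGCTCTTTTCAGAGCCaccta
Hist1h1a: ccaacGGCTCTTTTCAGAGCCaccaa
Hist1h2bg: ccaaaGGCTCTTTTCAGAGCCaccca
Hist1h2bc: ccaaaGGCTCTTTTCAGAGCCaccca
Hist2h2aa1: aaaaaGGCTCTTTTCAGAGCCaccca
Hist1h4d: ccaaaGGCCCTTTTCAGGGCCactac
Hist1h4i: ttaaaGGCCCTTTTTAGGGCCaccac

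The Hist1h1b stem-loop lies at chr13:21871701-21871726 on the minus strand and that of Hist1h2bc at chr13:23776511-23776536 on the plus strand, 31 and 35 bases past their stop codons. None of the 13 H4 genes carried the form most frequent in the other families, and 8 of the 13 carried the form shown for Hist1h4d. Measured on the genome, introns included, the annotation ended more than 100 bases past the stem-loop in 20 genes. In Hist1h2bc it ended 7826 bases past it, while the counted exons of that gene summed to 728 bases. In Hist1h1b the annotation stopped before the stem-loop. In 29 of the 64 genes the exons the authors counted over were the coding sequence alone. Coding sequences in a family are also close copies of each other. The median share of 50-base windows found in another of these genes was 11.0% in H1, 81.2% in H2A, 79.6% in H2B, 79.2% in H3 and 71.2% in H4. In Hist1h1b, Hist1h1a and Hist2h2be no window was found in another of these coding sequences. The aligner was set to report at most 1 alignment per read, so a read from a shared window may sit on any of the copies and values of single H2A, H2B, H3 and H4 genes are uncertain to that extent. Whether counting used strand is not stated in the sources used here.

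Promoters were read for the 58 histone genes matched in RefSeq (GRCm38.p6, 250 bases before to 50 bases after the start, both strands searched). The CCAAT letters, bound by NF-Y, were in 49 of the 58 (84.5%) against 41.1% of 27025 gene promoters, but in 3 of 12 H4 promoters. The TATA box letters TATAAA were in 34 (58.6%) against 15.7%. The octamer ATTTGCAT, bound by OCT1 and OCT2, was in 14 (24.1%) against 1.97% of all promoters: 7 of 15 H2A and 7 of 16 H2B promoters held it, and no H1, H3 or H4 promoter did. Many H2A and H2B genes are paired head to head, so 1 octamer can be counted for both genes of a pair. The E2F-type letters TTTCGCGC were in 8 (13.8%) against 0.374%. The promoters of Hist1h1b and Hist1h2bg, a linker histone and an H2B gene that rose in GCB, are given here with these letters in capitals (ATTGG is CCAAT on the other strand):
Hist1h1b: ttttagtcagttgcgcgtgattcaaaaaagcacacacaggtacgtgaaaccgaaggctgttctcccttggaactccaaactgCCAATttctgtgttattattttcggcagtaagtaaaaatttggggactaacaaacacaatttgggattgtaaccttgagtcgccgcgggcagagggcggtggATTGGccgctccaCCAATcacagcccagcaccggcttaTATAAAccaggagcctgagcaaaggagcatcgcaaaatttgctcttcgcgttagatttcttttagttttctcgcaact
Hist1h2bg: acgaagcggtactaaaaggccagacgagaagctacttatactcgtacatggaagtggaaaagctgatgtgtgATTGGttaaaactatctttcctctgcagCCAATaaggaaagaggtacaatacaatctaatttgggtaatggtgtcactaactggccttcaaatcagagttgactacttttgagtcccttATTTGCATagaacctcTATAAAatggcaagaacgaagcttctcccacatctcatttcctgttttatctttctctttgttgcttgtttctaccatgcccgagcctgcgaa
The Hist1h1b promoter held CCAAT on both strands and TATAAA but no octamer, and that of Hist1h2bg held CCAAT, the octamer and TATAAA.

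Reads on the 64 genes were few. They summed to 15618 of 111122943 reads over the 18 libraries, and 7 genes had no read in any library: Hist1h2aa, Hist1h2af, Hist1h2ah, Hist1h2ba, Hist1h3a, Hist1h3b and Hist1h3c. A further 14 genes never exceeded 3 reads in a library, which brought the genes at or under that level to 21, and 11 genes had a read in all 18 libraries. The filter of more than 1 FPKM in at least 2 libraries kept 36 genes: 4 H1, 9 H2A, 13 H2B, no H3 and 10 H4 genes. H2B genes took 34.5% of the reads, H1 30.6%, H4 17.3%, H2A 17.1% and H3 0.435%. Hist1h1b, which encodes a linker histone, alone had 1882 reads.

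In nB, the 64 genes together took 86.2 to 114 RPM (reads per 1000000 reads on listed genes; median 106). GCB libraries had 144 to 175 RPM (median 166), and BMPC libraries had 115 to 227 RPM (median 179). No GCB or BMPC library fell below the highest nB library, whereas GCB and BMPC overlapped. In a bulk sample, fewer cells with a transcript and less of it per cell cannot be told apart. Between genotypes, these shares overlapped in each cell type: in BMPC they were 227, 189 and 169 RPM in the sufficient and 115, 168 and 197 in the deficient libraries. On the per-length scale the BMPC libraries did not overlap: the summed FPKM of the 64 genes was 320, 328 and 287 in the sufficient and 188, 243 and 248.5 in the deficient libraries. Without Hist1h1b, the GCB mean dropped from 162 to 129 RPM and still exceeded the nB mean of 104.

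The families differed in how their summed FPKM changed between the 3 cell types. Summed FPKM of H1 genes was 14.9 ± 8.77 and 14.5 ± 2.09 (SD, n = 3) in sufficient and deficient nB. It was 75.1 ± 5.98 and 62.9 ± 15.7 for GCB and 46.7 ± 10.9 and 33.3 ± 17.8 for BMPC. In the same order, H2B sums were 50.6 ± 12.9 and 46.7 ± 9.74 in nB and 77.2 ± 7.09 and 66.0 ± 11.8 for GCB, with 145 ± 33.2 and 88.7 ± 13.7 for BMPC. The mean H1 sum was thus highest in GCB and the mean H2B sum highest in BMPC. H4 sums were 40.3 ± 5.33 and 38.1 ± 11.0 in nB against 85.4 ± 8.45 and 78.6 ± 24.6 in GCB. For BMPC the H4 sums were 94.8 ± 21.9 and 78.7 ± 10.9, as high as in GCB. H2A sums lay between 14.2 and 31.5 in every nB and GCB library. In BMPC, H2A sums spread from 8.66 to 45.4.

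**Figure D1:**
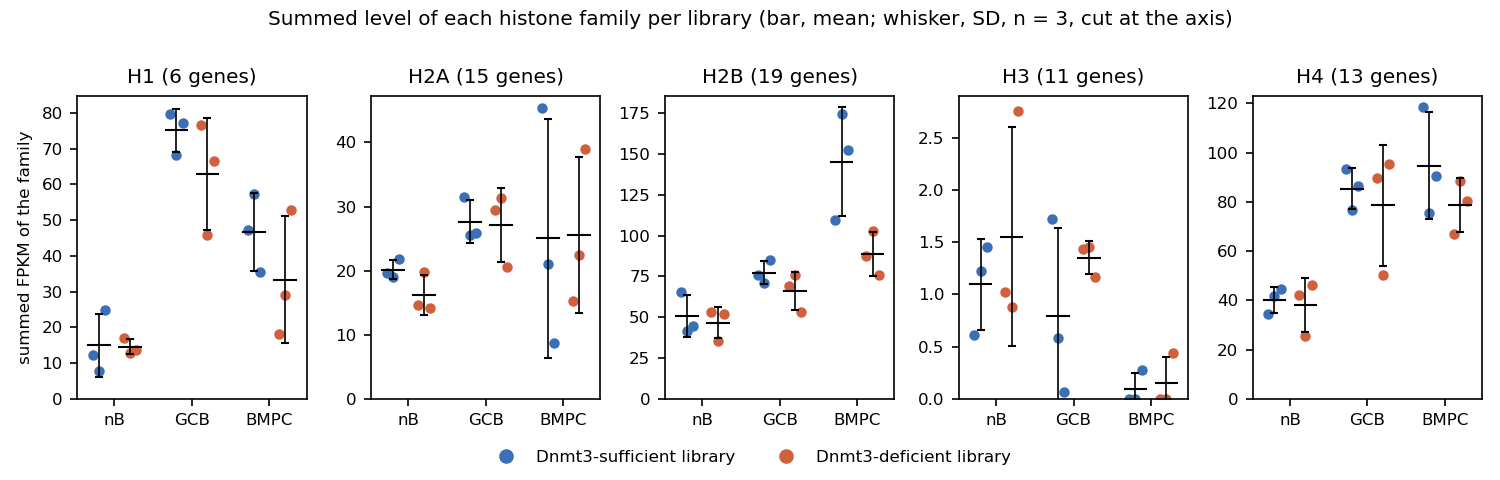
Summed FPKM of each of the 5 histone families (vertical axis, linear, a separate scale in each panel) in each library of nB, GCB and BMPC. Points are libraries, blue for Dnmt3-sufficient and orange for Dnmt3-deficient, bars are means and whiskers SD of 3 libraries, cut at 0. The 6 GCB libraries lie above the 6 nB libraries for H1 and H4, and H3 stays below 3 FPKM in every library.

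The 11 H3 genes stood apart from the other families in level. They had 68 reads in all 18 libraries together, at most 15 in a library, and none passed the filter. The highest were Hist1h3i, Hist1h3e and Hist1h3g, with mean levels of 0.183, 0.169 and 0.152 FPKM over the 18 libraries. In BMPC the family had 1 read in each of 2 libraries and none in the other 4. A difference between groups was not detectable for H3 genes at this depth.

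**Figure D2:**
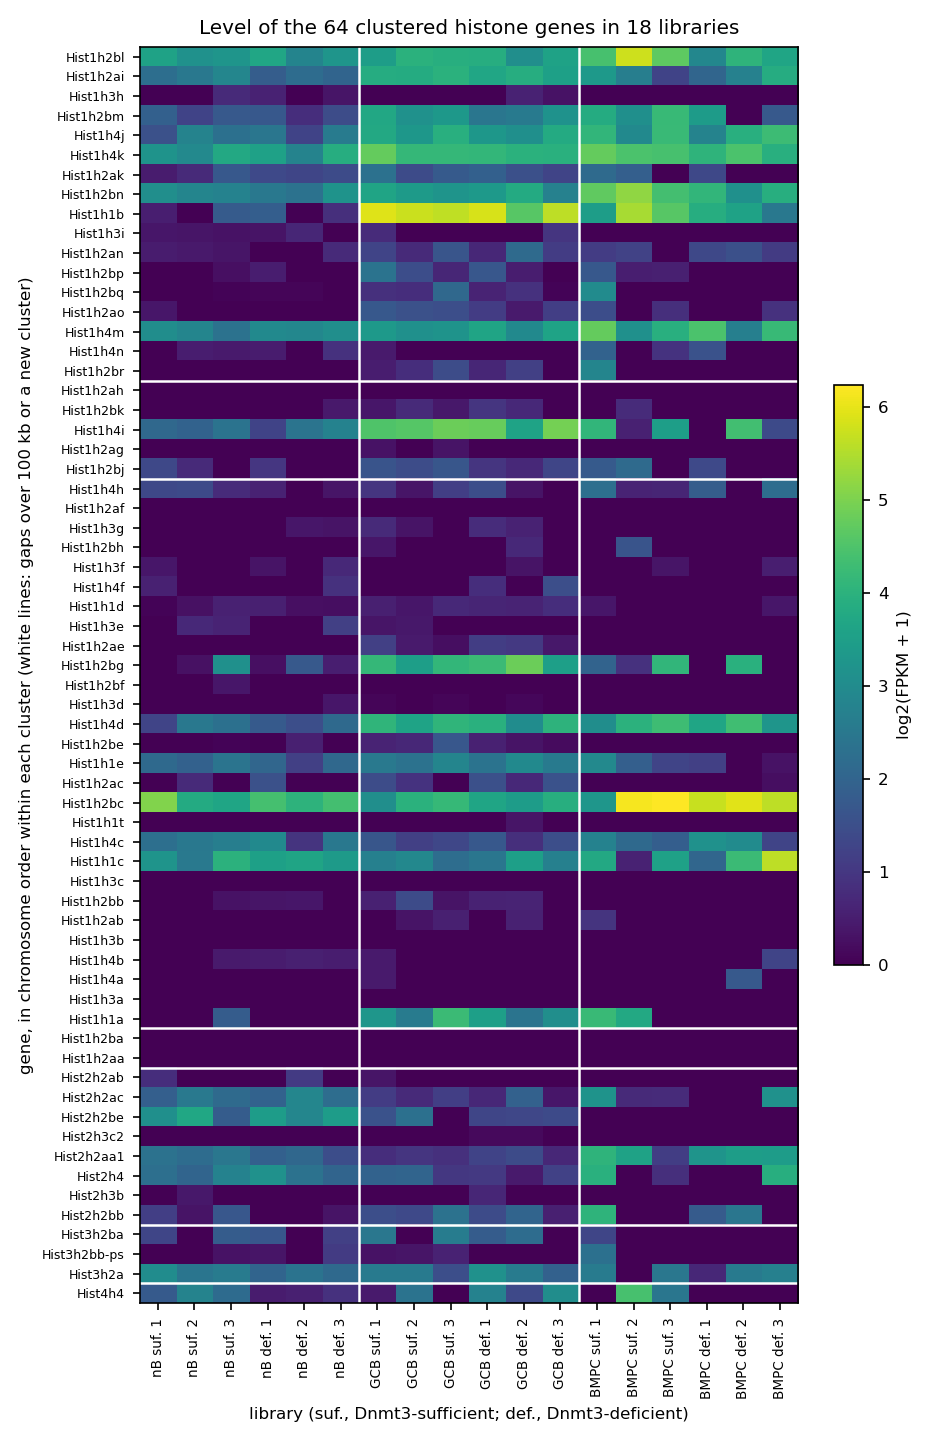
Level of each of the 64 genes (rows, in chromosome order within Hist1 to Hist4) in each of the 18 libraries (columns), as log2(FPKM + 1) by colour. White lines separate cell types, the clusters, and blocks of genes more than 100 kb apart. The brightest rows are Hist1h1b in GCB and Hist1h2bc in BMPC, and the 7 genes without a read are dark throughout.

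Whether germinal center cells carry more replication histone transcript than resting cells was asked with GCB against nB, over both genotypes (6 libraries each). A gene was called when its adjusted p was 0.05 or less and its log2(FPKM + 1) changed by at least 1 (limma with Benjamini-Hochberg adjustment over 11522 genes). Of the 36 histone genes tested, 9 were higher (25.0%, against 9.47% of all genes tested) and 1 was lower (2.78%, against 12.0%). The median change was 0.64 over the 36 and -0.13 over all genes tested. The filter let genes pass through the group in which they are high, so these shares describe the genes that passed.

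Hist1h1b (chr13:21871752-21872494) changed most. Its FPKM was 0 to 2.61 in nB (median 0.612) and 23.4 to 60.3 in GCB (median 50.5). The lowest GCB library was thus well above the highest nB library, and the change was 4.73 ± 0.45 on the log2(FPKM + 1) scale (SE; adjusted p = 5.75e-07, limma). Hist1h1a, another linker histone, was at 0 in 5 nB libraries and at 2.53 FPKM in the other, against 4.31 to 18.03 in GCB (change 2.89 ± 0.59, adjusted p = 0.00142, limma). The 2 other H1 genes tested were not called. Hist1h1c stood at 4.77 to 15.0 FPKM in nB and 3.71 to 10.5 in GCB, and Hist1h1e at 1.25 to 4.26 and 4.06 to 6.79.

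Of 13 H2B genes tested, 2 were higher and 1 was lower. Hist1h2bg was at 0 to 7.78 FPKM in nB (median 0.319) and 10.2 to 27.6 in GCB (change 3.07 ± 0.74, adjusted p = 0.00468, limma). A single nB library, sufficient replicate 3, held most of its nB reads, and this library was also the one with Hist1h1a. Hist1h2bm was at 0.748 to 2.75 FPKM in nB and 4.41 to 12.4 in GCB (change 1.59 ± 0.46, adjusted p = 0.0166, limma). Hist2h2be was the one that fell: its FPKM was 2.51 to 12.1 in nB (median 8.72) and 0 to 3.95 in GCB (median 1.58), a change of -1.74 ± 0.38 (adjusted p = 0.00242, limma). The highest of its GCB libraries overlapped the lowest nB library.

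Of 10 H4 genes, 3 were higher and none was lower. Hist1h4i went from 1.40 to 5.85 FPKM in nB to 11.3 to 29.3 in GCB (change 2.40 ± 0.67, adjusted p = 0.0128, limma). Hist1h4d went from 1.44 to 4.61 to 7.14 to 15.9 (change 1.89 ± 0.35, adjusted p = 0.000591, limma), and Hist1h4j from 1.37 to 5.87 to 7.53 to 14.4 (1.39 ± 0.39, adjusted p = 0.0128, limma). Hist1h4k, the H4 gene with the highest mean level, also did not overlap between the cell types (5.94 to 13.8 against 14.5 to 26.3 FPKM), but its change of 0.83 ± 0.28 was under the minimum. Of 9 H2A genes, Hist1h2ai and Hist1h2ao were higher. Hist1h2ai was at 2.55 to 6.23 FPKM in nB and 10.7 to 14.7 in GCB (change 1.52 ± 0.38, adjusted p = 0.00628, limma). Hist1h2ao never exceeded 2 reads in an nB library, and its GCB mean of 1.46 FPKM was at least 3.81-fold higher than the level that 3 reads per library would give in nB.

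The libraries of GCB and nB did not overlap for 12 of the 36 genes (33.3%, against 27.6% of all genes tested). Among genes named above, these included each of the 9 that were higher. Each of the 10 calls held when any of the 12 libraries was left out. The count was 16 with voom on the recovered reads, 4 in the contrast of sufficient libraries alone and 6 in that of deficient libraries alone. How many of all genes were called in these runs is not given here.

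**Figure D3:**
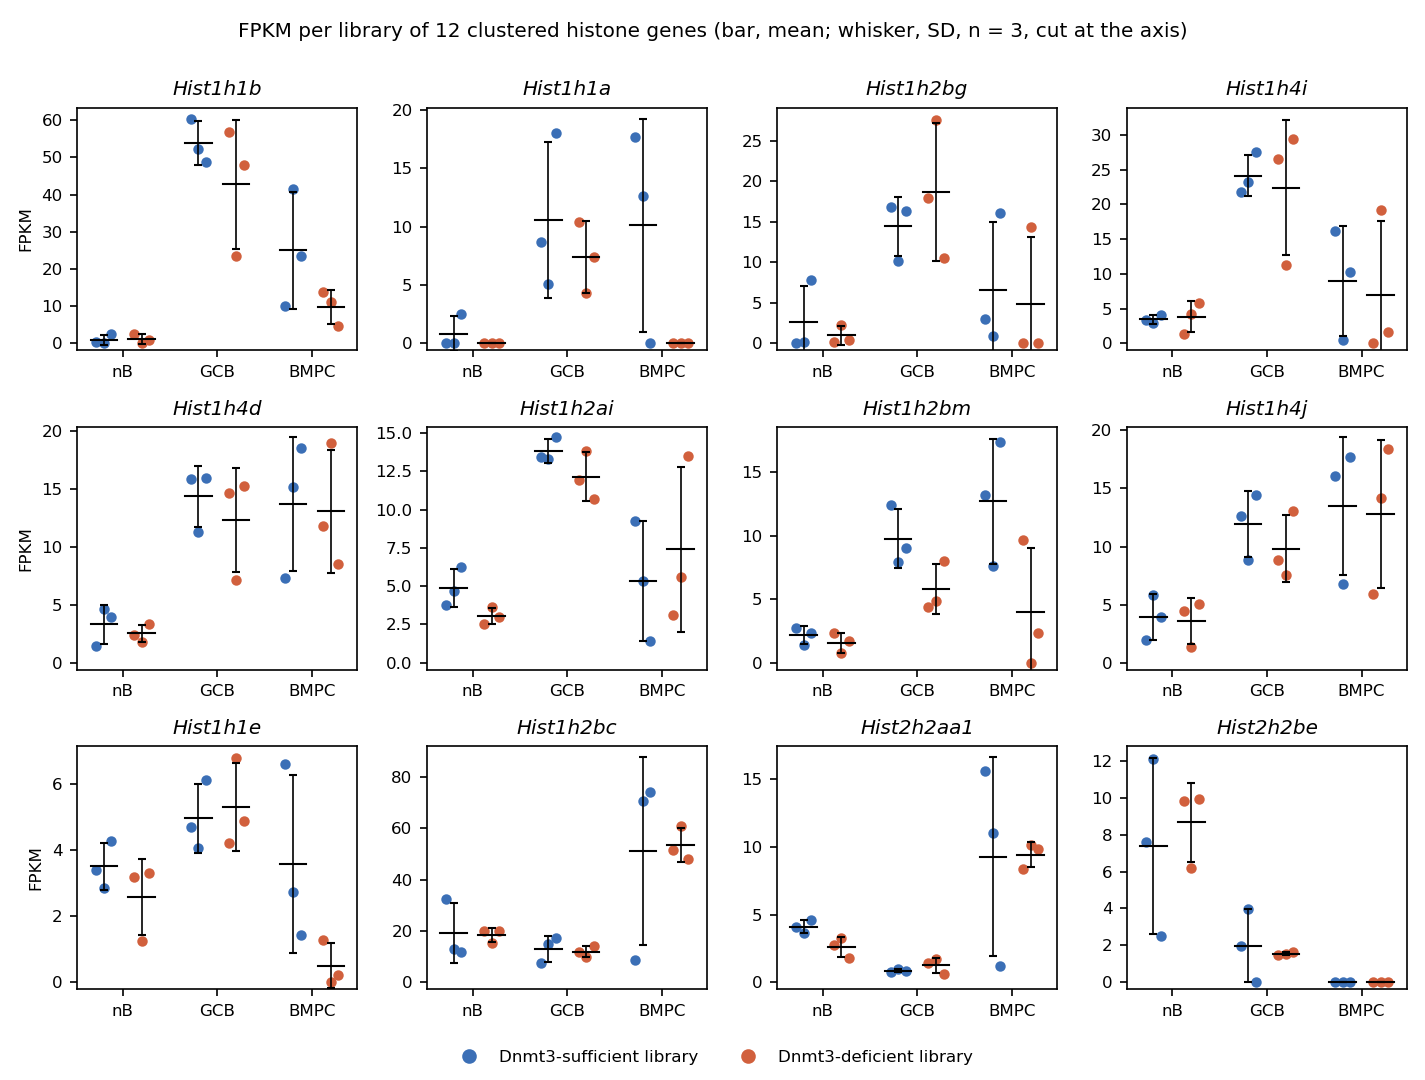
FPKM (vertical axis, linear, own scale in each panel) of 12 histone genes in each library of nB, GCB and BMPC. Points are libraries, blue for Dnmt3-sufficient and orange for Dnmt3-deficient, with the mean and SD of 3 libraries, the whiskers cut at the axis. Hist1h1b lies at 23.4 to 60.3 FPKM in GCB and at most 2.61 in nB, and Hist2h2be is at 0 in the 6 BMPC libraries.

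The same question was put to plasma cells, which as a type have mostly stopped dividing, with BMPC against nB. In these libraries, however, 8 of 10 genes of S phase entry and cycling were higher than in nB, and 1 was lower. The values below are thus not read as those of cells that no longer divide. The part of cycling cells in the result was not tested. Of the 36 genes, 8 were higher (22.2%, against 9.43% of all genes tested) and 1 was lower (2.78%, against 39.3%). Among tested genes with counted exons of at most 1000 bases, 7 of 27 histone genes were higher and none was lower, against 28.3% and 13.1% of all genes of that length. The median of all genes tested was -0.79 in this comparison and 0.42 for the 36 histone genes. The BMPC libraries had fewer reads and spread more widely than the others. In the main fit, each gene's SE and p came from 1 spread shared by all 18 libraries, here and in every other comparison. They thus understate the spread within BMPC. They also held the early B, neutrophil-lineage and erythroid markers given above, and the part of those cells in the result was not tested.

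Hist1h1b rose here too, to 4.60 to 41.5 FPKM in BMPC (median 12.3) from at most 2.61 in nB (change 3.07 ± 0.45, adjusted p = 2.79e-05, limma). The H4 genes Hist1h4d and Hist1h4j were at 7.30 to 18.9 and 5.89 to 18.4 FPKM in BMPC, above their nB ranges (changes 1.86 ± 0.35 and 1.56 ± 0.39). These 3 genes were among the 5 of 36 that did not overlap between the cell types (13.9%, against 24.8% of all genes tested), and their calls held without any of the 12 libraries. Hist1h2bn was at 7.75 to 35.9 FPKM in BMPC and 4.11 to 8.24 in nB (change 1.44 ± 0.31, adjusted p = 0.000894, limma).

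Hist1h2bc, an H2B gene known to make a polyadenylated transcript too, had the highest mean level of all 64 genes, 27.8 FPKM over the 18 libraries. In BMPC it was at 8.76, 70.4 and 74.2 FPKM in the sufficient and 51.3, 60.8 and 47.9 in the deficient libraries. In nB its range was 11.8 to 32.4. Sufficient replicate 1 of BMPC was thus below every nB library and the other 5 were above (change 1.27 ± 0.44, adjusted p = 0.0232, limma).

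Hist2h2be went the other way. It had 953 reads over the 6 nB libraries and none in BMPC, where it was at 0 in 6 of 6 libraries. Against the level that 3 reads per library would give, its nB mean of 8.03 FPKM was at least 15.1-fold higher (adjusted p = 5.53e-06, limma). Its call held without any of the 12 libraries and under each alternative run.

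The other calls were less firm. Hist1h2bm, Hist1h4m and Hist2h2aa1 changed by 1.23 ± 0.46, 1.00 ± 0.36 and 1.07 ± 0.41. The call of Hist2h2aa1 was lost when any of 9 of the 12 libraries was left out, that of Hist1h2bm with any of 6 and that of Hist1h4m with any of 5, and Hist1h2bc lost its call without sufficient replicate 2 or 3 of nB or of BMPC (change 1.02 to 1.18). Fitted to the nB and BMPC libraries alone, 5 histone genes were called, and the share of all genes called in that fit is not given here.

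**Figure D4:**
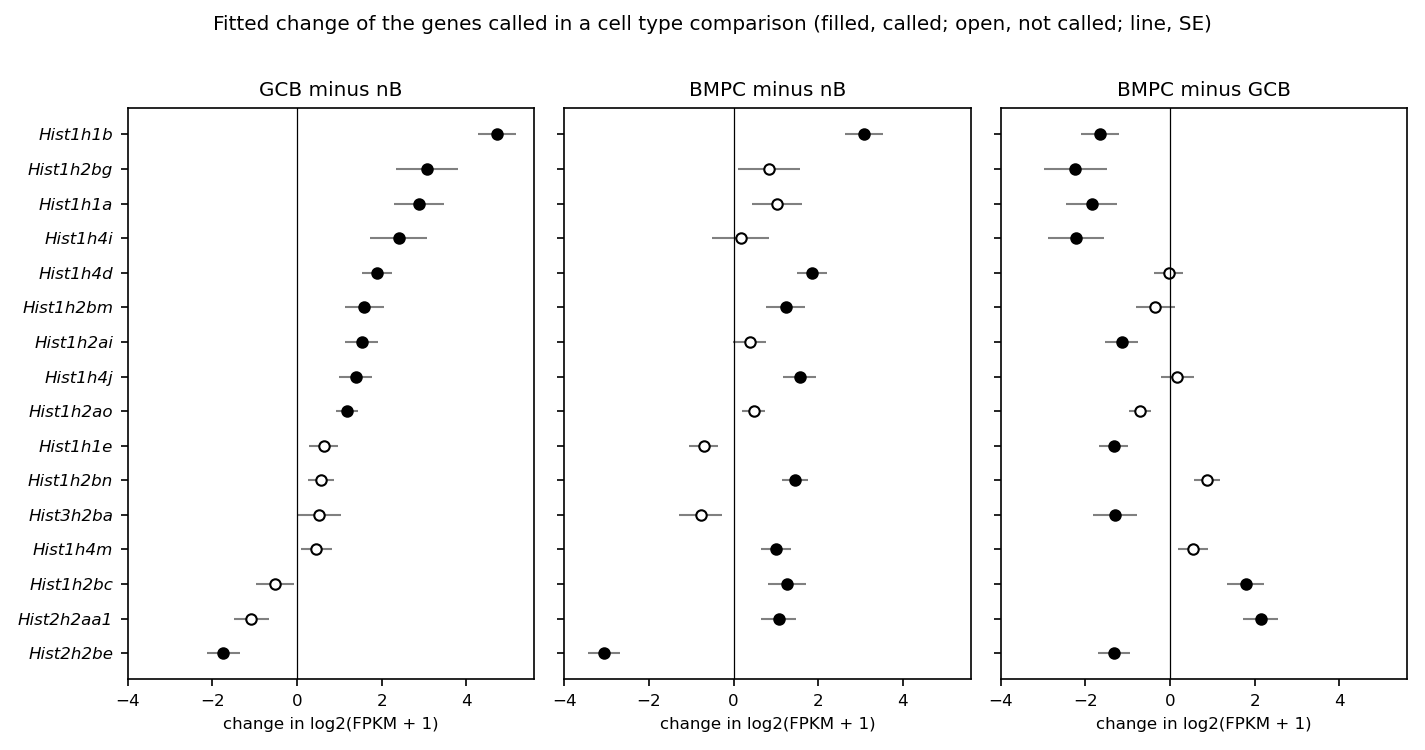
Fitted change in log2(FPKM + 1) (horizontal axis) of the 16 histone genes called in at least 1 cell type comparison, in GCB minus nB, BMPC minus nB and BMPC minus GCB. Filled points were called, open points were not, and lines show the SE. Hist1h1b is at 4.73 and 3.07 in the first 2 panels and at -1.66 in the last, and Hist2h2be is below 0 in each.

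BMPC were compared with GCB directly, since both come from immunized mice. Tissue still differed (bone marrow against lymph node), so cell type and tissue cannot be told apart here, and the mix of sexes differed too. Of the 36 genes, 2 were higher in BMPC (5.56%, against 7.72% of all genes tested) and 8 were lower (22.2%, against 33.7%), and the median change was -0.32 against -0.66 over all genes tested. Linker histones accounted for 3 of the 8: Hist1h1b (change -1.66 ± 0.45, adjusted p = 0.00623, limma), Hist1h1a (-1.86 ± 0.59) and Hist1h1e (-1.33 ± 0.35). Hist1h1a was at 17.7 and 12.7 FPKM in sufficient replicates 1 and 2 of BMPC and at 0 in the other 4 libraries. Hist1h2bg and Hist1h4i behaved likewise from library to library: Hist1h2bg was at 2.96, 0.855 and 16.1 FPKM in sufficient and 0, 14.4 and 0 in deficient BMPC, and Hist1h4i at 16.1, 0.490 and 10.3 and at 0, 19.2 and 1.64. Their changes were -2.24 ± 0.74 and -2.23 ± 0.67. The other 3 lower genes were Hist2h2be, Hist3h2ba and Hist1h2ai. Hist3h2ba was called at an adjusted p of 0.0474 (limma), had at most 2 reads in a BMPC library, and lost its call without any of 9 of the 12 libraries.

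The genes higher in BMPC than in GCB were Hist2h2aa1, an H2A gene, and Hist1h2bc. Hist2h2aa1 was at 0.630 to 1.69 FPKM in GCB. In BMPC it was at 15.6, 11.0 and 1.18 in the sufficient and 8.39, 10.1 and 9.82 in the deficient libraries (change 2.15 ± 0.41, adjusted p = 0.000453, limma). Sufficient replicate 3 overlapped GCB, and the other 5 did not. Its call held under each alternative run. Hist1h2bc changed by 1.79 ± 0.44 (adjusted p = 0.00346, limma). Of the other lower calls, Hist1h2bg was lost without BMPC sufficient replicate 2, deficient replicate 1 or deficient replicate 3 (change -1.88 to -1.91), and Hist1h2ai without BMPC sufficient replicate 3 or deficient replicate 1 (-0.85 and -0.94). With median of ratios scaling, which moved the median of all genes from -0.66 to -0.53, 4 genes were higher and 6 lower in place of 2 and 8, and 8 of the 10 calls were shared. With sufficient libraries alone, 2 genes were past the threshold, Hist2h2aa1 and Hist1h2bn. For this run and that with median of ratios scaling, the share of all genes called is not given here.

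The comparisons with nB and with GCB share libraries, so a gene's values are given side by side and no overlap is read from them. Hist1h4d had means of 2.93, 13.3 and 13.4 FPKM in nB, GCB and BMPC, and Hist1h4j of 3.75, 10.9 and 13.2, and in both genes the GCB and BMPC ranges overlapped and lay above that of nB. Hist1h1b had means of 1.05, 48.3 and 17.4 FPKM, Hist1h4i of 3.65, 23.3 and 7.96. Hist2h2aa1 had 3.34, 1.04 and 9.35 and Hist1h2bc 18.7, 12.5 and 52.2, with the lowest mean in GCB. Hist2h2be, at 8.03, 1.76 and 0, had its highest mean in nB.

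Of these genes, Hist1h1c, Hist1h2bc, Hist2h2be, Hist3h2a and Hist4h4 are known to make polyadenylated transcripts besides the stem-loop form. None of the 5 was higher and 1 was lower in GCB than in nB, and in BMPC against nB 1 was higher and 1 lower. Of all genes tested, 9.47% were higher and 12.0% lower in GCB, and 9.43% and 39.3% in BMPC, each against nB. Their summed FPKM ran from 37.7 to 58.0 in nB and from 20.2 to 34.3 in GCB (BMPC 26.3 to 101), so no GCB library reached the lowest nB library. Hist1h1c spread widely in BMPC, from 0.505 FPKM in sufficient replicate 2 to 47.8 in deficient replicate 3. Hist3h2a was at 3.02 to 7.21 FPKM in nB and 1.84 to 7.96 in GCB.

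The length of the counted exons ran with this. Genes whose exons summed to more than 1000 bases, a limit chosen after the values were seen, numbered 14. They held 56.1% to 64.6% of the histone reads of each nB library and 25.2% to 39.5% of those of each GCB library, which did not overlap. The BMPC range was 16.9% to 56.6%. In GCB against nB, 8 of 27 tested genes with shorter exons were higher and none was lower, against 1 higher and 1 lower of 9 with longer exons. Over all genes tested, 12.8% of those with exons of at most 1000 bases were higher and 8.97% lower, against 9.17% and 12.3% of the longer. In BMPC against GCB, 1 of the 27 shorter genes was higher and 6 were lower, where 18.5% and 11.9% of all genes of that length were.

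Levels were also summed by position. Genes less than 100 kb apart formed 7 blocks. The first Hist1 block (chr13:21807632-21929399) held 17 genes, of which 15 passed the filter, and summed to 44.3 ± 8.10, 137 ± 23.0 and 129 ± 42.5 FPKM (SD, n = 6) in nB, GCB and BMPC. The block around Hist1h1c and Hist1h2bc (chr13:23622919-23856283) held 28 genes, 10 of which passed, with 44.2 ± 8.43, 70.1 ± 8.70 and 102 ± 23.9 FPKM. In the small block of Hist1h4i the sums were 4.25 ± 1.27, 25.3 ± 6.74 and 9.31 ± 8.05. The Hist2 block, with Hist2h2be and Hist2h2aa1, was the only block in which each GCB library lay below each nB library: 18.5 to 24.0 FPKM in nB and 4.33 to 10.2 in GCB. Its BMPC sum ran from 2.68 to 53.9.

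The study was made to find what loss of Dnmt3a and Dnmt3b does in each B cell stage, so the genotypes were compared in each. In nB, none of the 36 histone genes was called (0%, against 0.0521% of all genes tested). None had an unadjusted p under 0.05 (0%, against 2.71% of all genes tested, limma). The same held in GCB, where no gene of any kind was called (0%) and 1.08% of all genes tested had an unadjusted p under 0.05 (limma). With voom the count was 0 in both cell types. As these shares were low for all genes, the 0 is not read as particular to histone genes. Changes ranged from -1.61 to 0.39 in nB and from -0.77 to 1.45 in GCB. Hist1h1b was at 60.3, 52.4 and 48.7 FPKM in sufficient and 56.9, 23.4 and 47.9 in deficient GCB, and the groups overlapped.

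In BMPC, none of the 36 was called either (0%, against 3.98%), and 6 had an unadjusted p under 0.05, each lower in deficient cells (16.7%, against 20.3% of all genes tested in either direction, limma). By fit to BMPC alone and by voom the count was also 0. The 4 with the lowest p were Hist1h1a, Hist1h1e, Hist1h2bl and Hist1h2bm, with changes of -2.67 ± 0.84, -1.54 ± 0.49, -1.42 ± 0.46 and -1.99 ± 0.65 (adjusted p = 0.0786, 0.0787, 0.0835 and 0.0878, limma). Hist1h1e was at 6.60, 2.72 and 1.43 FPKM in sufficient and 1.27, 0 and 0.229 in deficient BMPC. Hist1h2bl was at 20.3, 53.1 and 24.6 against 6.43, 15.5 and 11.6. For both genes the lowest sufficient library was above the highest deficient library. This was so for 4 of the 36 genes (11.1%), against 7.31% of all genes tested.

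These values turned on single libraries. Without BMPC sufficient replicate 1, Hist1h2bl and Hist4h4 were called lower in deficient BMPC. Hist4h4 had 0, 24 and 5 reads in the sufficient BMPC libraries and 0 in each deficient one. Without sufficient replicate 3, Hist1h1a and Hist1h1e were called, and without deficient replicate 1, Hist1h1e and Hist1h2bm. With no library left out, 3.98% of all genes tested were called between genotypes in BMPC. The share in each run with a library left out is not given here, so these calls are not read as particular to histone genes. The summed FPKM of 10 genes of S phase entry and cycling was 716, 910.6 and 914.1 in sufficient and 714, 515 and 366 in deficient BMPC, and erythroid markers were also lower in deficient libraries. The plasma cell marker sum was higher in each deficient than in each sufficient BMPC library. Their part in the differences between genotypes was not tested.

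The genotype changes were also compared between cell types. None of the 36 interactions passed for GCB against nB (0%, against 0% of all genes), BMPC against nB (0%, against 0.555%) or BMPC against GCB (0%, against 0.425%), and 1, 0 and 2 of them had an unadjusted p under 0.05 (2.78%, 0% and 5.56%, against 1.77%, 11.9% and 9.43% of all genes, limma). Hist4h4, the single gene of its cluster, had the lowest p in the first and last. It was at 2.39, 5.87 and 3.57 FPKM in sufficient and 0.401, 0.457 and 0.839 in deficient nB, and was among the 5 of 36 genes that did not overlap there (13.9%, against 8.84%). In GCB it was at 0.360, 4.19 and 0 in sufficient and 5.77, 1.59 and 7.26 in deficient cells. In BMPC it was at 0, 20.2 and 4.42 in the sufficient and at 0 in each deficient library. These values rest on 112 reads over the 18 libraries, and the interaction between GCB and nB was 3.06 ± 1.19 with an adjusted p of 1 (limma). Without BMPC sufficient replicate 1, the interaction of Hist4h4 between BMPC and GCB was called, and without sufficient replicate 3 that of Hist1h1a was, against nB and against GCB. The shares of all genes called in these runs are not given here.

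Replacement histone genes, which are expressed outside S phase too, were set beside the clustered genes on the same per-length scale. The 64 genes summed to 94.8 to 137 FPKM in nB. The sums were 205 to 282 for GCB and 188 to 328 for BMPC. H2afz, which encodes the replacement histone H2A.Z and makes polyadenylated RNA, was alone at 265 to 404 FPKM in nB, with 1824 to 2654 for GCB and 1633 to 3151 for BMPC (GCB against nB 2.86 on the log2 scale). H3f3a and H3f3b, which encode the replacement H3.3, stood at 500 to 628 and 463 to 714 FPKM in nB, where the 11 clustered H3 genes together reached at most 2.76. Each of these 3 genes was above the sum of the 64 clustered genes in all 18 libraries, and each of the other 8 listed replacement genes was below it. Of 10 replacement histone genes tested, 5 were higher and none was lower in GCB than in nB, among them Cenpa, the centromeric H3 (15.3 against 96.5 FPKM), and H2afx (1.42 against 12.5). Of all genes tested in this comparison, 9.47% were higher and 12.0% lower.

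The genes that handle histone RNA and protein were read for the same contrast, again beside the 9.47% higher and 12.0% lower of all genes tested. Of 14 genes of histone RNA synthesis and 3′ processing, 2 were higher and none was lower in GCB: Slbp, at 68.3 to 118 FPKM in nB and 380 to 440 in GCB (change 2.18), and Cpsf2, a subunit of the cleavage complex, at 16.5 to 34.0 and 62.1 to 87.0 (1.65). Npat was not called (6.33 against 9.80 FPKM on average). Of 15 histone chaperone genes tested, 9 were higher and none was lower, among them Asf1b, which carries new H3 and H4 (27.4 against 530 FPKM), Nasp (8.98 against 75.0) and Chaf1b, of the replication-coupled assembly factor (2.03 against 40.6). Of 10 genes of S phase entry and cycling, 9 were higher, with Rrm2, a ribonucleotide reductase subunit, at 0 to 7.98 FPKM in nB and 527 to 598 in GCB.

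In BMPC against nB, 9.43% of all genes tested were higher and 39.3% lower. Of the same lists, replacement histone genes gave 4 higher and none lower, and S phase genes 8 higher and 1 lower. RNA synthesis and processing genes gave none higher and 6 lower of 14, and chaperone genes 4 higher and 6 lower of 15. The lower counts of these 2 lists thus lay near the share of all genes. In BMPC against GCB, 9 of the 14 processing genes, 12 of the 15 chaperone genes and 6 of the 10 S phase genes were lower and none was higher. Of all genes tested in that comparison, 33.7% were lower and 7.72% higher. Slbp was at 89.3 to 273 FPKM in BMPC, below every GCB library. Rrm2 was at 144 to 378 FPKM in BMPC, above every nB library, and the early B markers were present in the same libraries. Their part in these levels was not tested. None of the genes of these 4 lists was called between genotypes in any cell type, against 0.0521%, 0% and 3.98% of all genes tested in nB, GCB and BMPC.

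**Figure D5:**
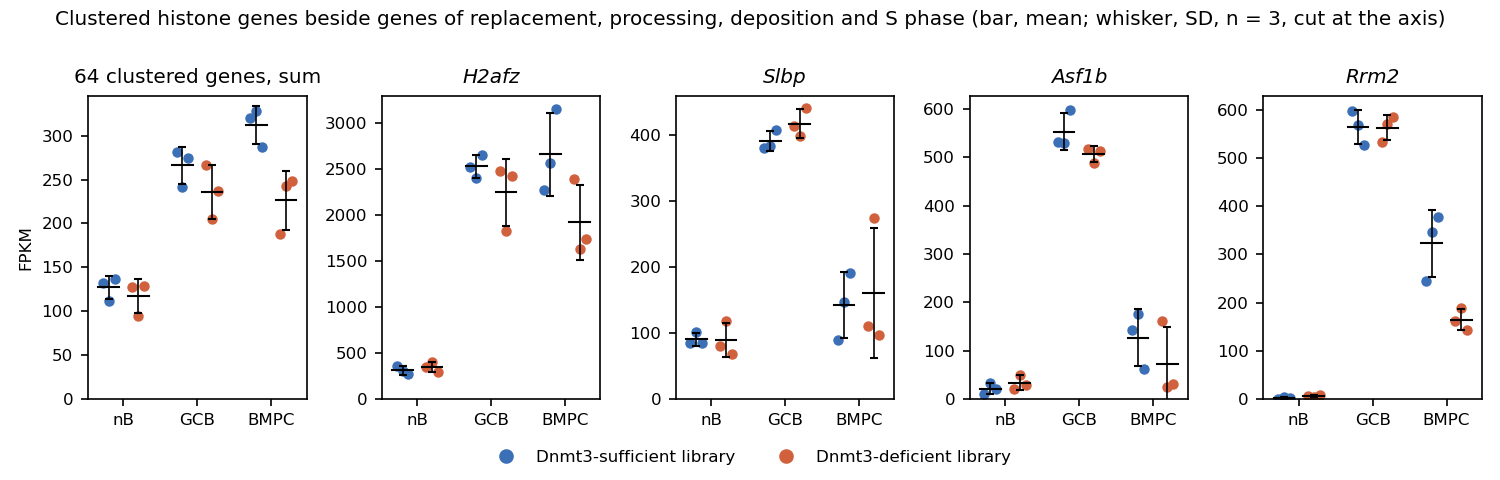
FPKM (vertical axis, linear, own scale in each panel) in each library of the 64 clustered histone genes summed, of H2afz (replacement histone), Slbp (stem-loop binding), Asf1b (chaperone) and Rrm2 (S phase). Points are libraries, blue for Dnmt3-sufficient and orange for Dnmt3-deficient, with the mean and SD of 3 libraries. In each panel the 6 GCB libraries lie above the 6 nB libraries, and the summed histone genes reach 328 FPKM where H2afz reaches 3151.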

How the data were processed

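The authors sequenced cDNA of sorted cells (SMART-Seq v2 and Nextera kits, 50 bp paired ends), aligned it to mm9 with TopHat, reporting at most 1 alignment per read, counted reads over UCSC known genes and deposited FPKM for 18 libraries. Values of a library were whole multiples of 1 read (100% within 0.01 reads), so reads per gene were recovered from the FPKM the authors deposited. The authors' own test used edgeR v3.12.1; as the deposited unit is FPKM, limma 3.58.1 (R 4.3.3) was run here on log2(FPKM + 1), by group over all 18 libraries with trend, on 11522 genes (2 or more libraries above 1 FPKM). Replicates were separate samples of mice; p-values were adjusted by Benjamini-Hochberg over all genes tested. The fit was run on simulated data for GCB against nB and for the genotype comparison in GCB only. That simulation gave every library the same spread and changed only genes with enough reads. It thus does not speak to BMPC or to genes with few reads. Depth is the sum of recovered reads, 1355231 to 8987922 per library, and floors of 3 reads cover counting error only.

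The genes and the lists were chosen with earlier results of these data known. Named genes were the 3 highest of each family, the 5 largest rises and falls called in each cell type comparison, and genes of the lists. Hist1h2bm, Hist1h2ao and Hist3h2ba were named after their values were seen, so that each called gene is named. Alternatives were another pseudocount (0.1), filter, scaling, spread, sex as a covariate, quality weights, voom, threshold, genotype, libraries left out, and, added after seeing the data, reads thinned to 1355231 per library. Coordinates and stem-loops came from the NCBIM37 genome with its GENCODE annotation, promoters from RefSeq. The files hold no protein sequence used here. The gene that drives Cre is not reported here.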

Additional observations from a re-analysis of the deposited data

How the results depend on the processing

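Counts of called histone genes were 10 in GCB against nB, 9 in BMPC against nB and 10 in BMPC against GCB. For GCB against nB they became 16 with voom, 4 with the Dnmt3-sufficient and 6 with the Dnmt3-deficient libraries alone. For BMPC against nB they became 5 in a fit to those cell types alone and 5 at an adjusted p of 0.01, and for BMPC against GCB 5 at 0.01 and 2 with the sufficient libraries alone. Leaving out a library gave 10 to 11, 6 to 10 and 8 to 11 in these comparisons, 0 in nB and GCB genotype comparisons, 0 to 2 in the BMPC genotype comparison, and 0 to 1 in the interactions of BMPC with nB and with GCB. Of the 724 alternative values of the 29 called pairs of gene and comparison, 615 were still called, 109 were not, and 0 changed sign. The cause of these losses was not tested. For these alternative runs, the share of all genes called is not given here. A moved count is thus not read as particular to histone genes. Thinned to 1355231 reads, the mean number of the 64 genes with a read fell from 34.0 to 22.5 in nB and from 42.0 to 29.0 in GCB (BMPC 24.8 and 22.3), and without Hist1h1b the GCB share was 129 RPM. GCB titles share numbers between genotypes. With the replicate block the GCB genotype count stayed at 0. Deviations of same-numbered libraries correlated at -8.06e-05, -0.0171 and 0.0257, so no shared deviation in expression was seen. Whether the numbers mark samples paired by design cannot be told from such a correlation. At this depth, differences in H3 genes, none of which passed the filter, were not detectable.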
